A study of Mus musculus with 8 samples.

Results

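Mitosis genes encode the proteins that take a cell from G2 through division, and 46 of them were followed across all 8 libraries of the study. The members were rows of the deposited count table matched by gene symbol to a fixed list of G2 and mitosis kinases, cyclins, kinesins, kinetochore genes and checkpoint genes. All 46 were found among the 24054 rows that name a gene, and all 46 passed the filter on low counts that left 11291 genes for testing. The lowest count of any member in any library was 213. The rule goes by gene symbol alone, but the list was drawn up with earlier results of these data known.

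The cells were 2 stable lines made from WEHI-231, mouse lymphoma cells that resemble immature B cells and are known to arrest and die when the antigen receptor is crosslinked. There were 4 groups of 2 libraries each: WEHI-miR-148a cells given anti-IgM at 2 ug/ml over 14 h, WEHI-miR-148a cells left unstimulated, WEHI-control cells given the same anti-IgM, and WEHI-control cells left unstimulated. Anti-IgM is an antibody that crosslinks the surface IgM receptor. The line names are the labels' own. The labels do not state how the microRNA was introduced, what the control line carries or whether a line is a clone. All groups share the WEHI-231 background, and RNA was selected on its polyA tail before sequencing.

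In cycling cells, Cdk1 bound to A- and B-type cyclins drives entry into mitosis once CDC25 phosphatases remove its inhibitory phosphates. Kinesins and kinetochore proteins then attach chromosomes to the spindle, the checkpoint holds the anaphase-promoting complex until all are attached, and that complex then has cyclin B and securin destroyed so that chromosomes separate and the cell divides. Most of these genes are transcribed together late in the cycle, under the MuvB complexes, B-Myb, Foxm1 and NF-Y. In bulk RNA, a larger share of cells in G2 and mitosis and more of these transcripts per cell cannot be told apart.

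Library totals ran from 5810227 to 18660373 counts, with the smallest totals in replicate 1 of each anti-IgM group. The level of a gene is given as CPM, its count relative to the library total after TMM scaling, and replicate 1 precedes replicate 2 throughout. The identity of the cells was checked on marker genes. The 8 B cell markers summed to 2043 to 2887 CPM in a library, whereas the T cell, myeloid, fibroblast and erythroid lists each summed to at most 3.31 CPM. The microRNA itself was not checked by these data, since the Mir148a row held 1 count in 1 unstimulated miR-148a library and 0 elsewhere, where 3 counts would correspond to at most 0.502 CPM. Whether the replicates were separate cultures is not stated, so p-values reflect a library-to-library spread that can be technical. Replicate 1 libraries carry the label prefix R137 and replicate 2 libraries the prefix R143, and same-numbered libraries deviated together. A fit with the replicate number as a block is therefore given beside a result wherever it changes a call or moves a count by more than 1.5 times.

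The promoters of these genes are shown because most members moved the same way. The RefSeq promoter table (GRCm38.p6, 250 bases before to 50 bases after each transcription start) held 39 of the 46 members. Exact matches were counted on both strands for the cell cycle genes homology region, TTTGAA or its complement TTCAAA, the MuvB contact element of late cell cycle promoters, and for the CCAAT box, CCAAT or ATTGG, the NF-Y element. TTTGAA or TTCAAA was present in 27 of the 39 member promoters (69.23%), against 7 of 40 DNA replication genes (17.5%) and 20.23% of all 27025 genes of the table. The 27 include Kif2c, whose stretch (chr4:117178723-117179022, minus strand) lies inside the gene as annotated in GENCODE M21, which begins at 117182639. Its match may thus not be in the promoter of the longest transcript. CCAAT or ATTGG was present in 29 members (74.36%), against 24 of 40 replication genes and 41.06% of all genes. Both elements were present in 23 members (58.97%), against 10.0% of the replication genes and 8.97% of all genes. Matches of the 2 elements did not overlap each other in any member promoter. The median position of the TTTGAA matches was -6.5 bases from the start site, and that of the CCAAT matches was -70.5 bases. A forkhead motif, TGTTTA or TAAACA, was also counted, and was present in 5 of 39 members (12.82%) against 15.06% of all genes. TTCGAA, a variant of TTTGAA, was present in 4 of 39 members (10.26%) against 1.8% of all genes. Matches are descriptions of the sequence and show no binding. In the 4 promoters below, read 5′ to 3′ on the gene's own strand, capitals mark the matches to either element. They were chosen to show different contents. Ccnf is a strongly responding gene with 2 TTTGAA matches, and Top2a is one with 6 CCAAT matches. Cdc25b, the strongest responder, has a CCAAT match and no TTTGAA match. Nusap1 is a strong responder with no match to either element. The variant TTCGAA, left in small letters, is also present in Top2a and Cdc25b. Ccnf lies at chr17:24251360-24251659, minus strand, Top2a at chr11:99024140-99024439, minus strand, Cdc25b at chr2:131186698-131186997, plus strand and Nusap1 at chr2:119618048-119618347, plus strand.
Ccnf: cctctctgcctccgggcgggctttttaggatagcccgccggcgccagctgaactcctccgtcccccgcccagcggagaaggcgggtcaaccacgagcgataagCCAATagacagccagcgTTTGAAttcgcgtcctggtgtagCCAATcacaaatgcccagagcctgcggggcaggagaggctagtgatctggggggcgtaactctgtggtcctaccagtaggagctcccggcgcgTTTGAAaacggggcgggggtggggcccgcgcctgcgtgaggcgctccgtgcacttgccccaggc
Top2a: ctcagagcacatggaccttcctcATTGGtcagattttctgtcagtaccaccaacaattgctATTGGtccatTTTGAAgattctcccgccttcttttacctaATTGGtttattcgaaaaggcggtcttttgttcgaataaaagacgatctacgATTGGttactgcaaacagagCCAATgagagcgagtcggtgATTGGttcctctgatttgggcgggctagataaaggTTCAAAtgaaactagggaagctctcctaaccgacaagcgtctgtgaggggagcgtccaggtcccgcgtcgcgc
Cdc25b: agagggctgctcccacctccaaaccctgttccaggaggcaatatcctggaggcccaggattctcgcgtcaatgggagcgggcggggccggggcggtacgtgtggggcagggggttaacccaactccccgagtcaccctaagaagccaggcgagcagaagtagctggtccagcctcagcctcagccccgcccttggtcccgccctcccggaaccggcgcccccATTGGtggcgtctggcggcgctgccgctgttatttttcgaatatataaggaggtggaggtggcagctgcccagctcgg
Nusap1: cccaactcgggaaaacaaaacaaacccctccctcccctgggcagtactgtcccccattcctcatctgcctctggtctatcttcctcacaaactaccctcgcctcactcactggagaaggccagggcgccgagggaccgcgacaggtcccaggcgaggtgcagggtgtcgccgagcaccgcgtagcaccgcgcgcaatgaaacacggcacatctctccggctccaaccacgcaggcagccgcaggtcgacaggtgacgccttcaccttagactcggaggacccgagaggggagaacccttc

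The other sequence that bears on the comparison of the lines is the microRNA. The mature miR-148a-3p (RefSeq, GRCm38.p6, chr6:51269829-51269850, minus strand) is printed below with its seed, bases 2 to 8, in capitals. A microRNA of this kind is known to pair through its seed with messenger RNAs, mostly in their 3′ UTR. The longest annotated 3′ UTR of each member in GENCODE M21 was searched on the sense strand for TGCACTG, the complement of the seed, and for TGCACTGA, the same match with an A opposite base 1. TGCACTG was present in 7 of 46 members (15.22%), against 12.72% of 21028 genes, and the longer TGCACTGA in 3 members (6.52%), against 3.59% of genes. The 3 members with the longer match were Ccnf (chr17:24223339-24223346, minus strand, base 552 of a 3′ UTR of 1700 bases), Aurkb (chr11:69051470-69051477, plus strand, base 409 of 603) and Mad2l1 (chr6:66546215-66546222, plus strand, base 5797 of 6802). Ccna2, Cdk1, Plk1 and Nusap1 held TGCACTG alone, and Mad2l1 held one such match besides its longer one. Coordinates are those of the matched bases in GRCm38, and in the stretches below capitals mark the match.
miR-148a-3p: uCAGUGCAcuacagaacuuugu
Ccnf site: tgtgaccgtatctcTGCACTGAatttcaag
Aurkb site: aggcaaaacacccaTGCACTGActtttaag
Mad2l1 site: gcatccatccccaaTGCACTGAgttttcag

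Anti-IgM was followed by higher levels of many mitosis genes in both lines, and none was called lower without the block. In the miR-148a line 23 of 46 members rose at an adjusted p below 0.05, and the log2 fold change over unstimulated cells was positive in 45 of 46, with a median of 0.38. In the control line 8 of 46 rose, with a positive log2 fold change again in 45 of 46 and a median of 0.23. All 8 members called in the control line were among the 23 of the miR-148a line: Ccnf, Cdc25b, Aurka, Cenpe, Cenpf, Kif22, Nusap1 and Foxm1. Over all genes tested, 14.7% were called higher in the miR-148a line and 9.6% in the control line, and 50.14% and 51.54% of log2 fold changes were positive. The median log2 fold change of all genes was 0.0017 in the miR-148a line and 0.014 in the control line. The member that went the other way in both lines was Mad2l1, the checkpoint protein that binds Cdc20.

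The spread between libraries bears on these counts. Both anti-IgM libraries lay above both unstimulated libraries for 36 members in the miR-148a line and 29 in the control line, against 32.9% and 31.1% of all genes tested. With the replicate block, 35 members were higher and 1 lower in the miR-148a line, where 22.8% and 23.3% of all genes were called higher and lower, and 25 were higher in the control line, where 17.6% were. The median log2 difference was 0.49 between the replicate 1 libraries and 0.30 between the replicate 2 libraries of the miR-148a line, and 0.30 and 0.14 in the control line. The 2 smallest libraries are thus those with the higher mitosis levels among anti-IgM libraries, and the part of library size in this was not tested. The control line kept 0 calls with unstimulated control replicate 2 left out, 1 member was called with anti-IgM control replicate 1 left out, and 4 with unstimulated control replicate 1 left out. The miR-148a line had 9 called members with unstimulated miR-148a replicate 1 left out. In each of these fits the share of all genes tested that was called higher was also smaller than with all 8 libraries. Members with a positive log2 fold change in the control line were 35 of 46 with anti-IgM control replicate 1 left out. Where a gene's call was lost without any of several libraries, the one that gave the highest adjusted p is named below.

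**Figure D1:**
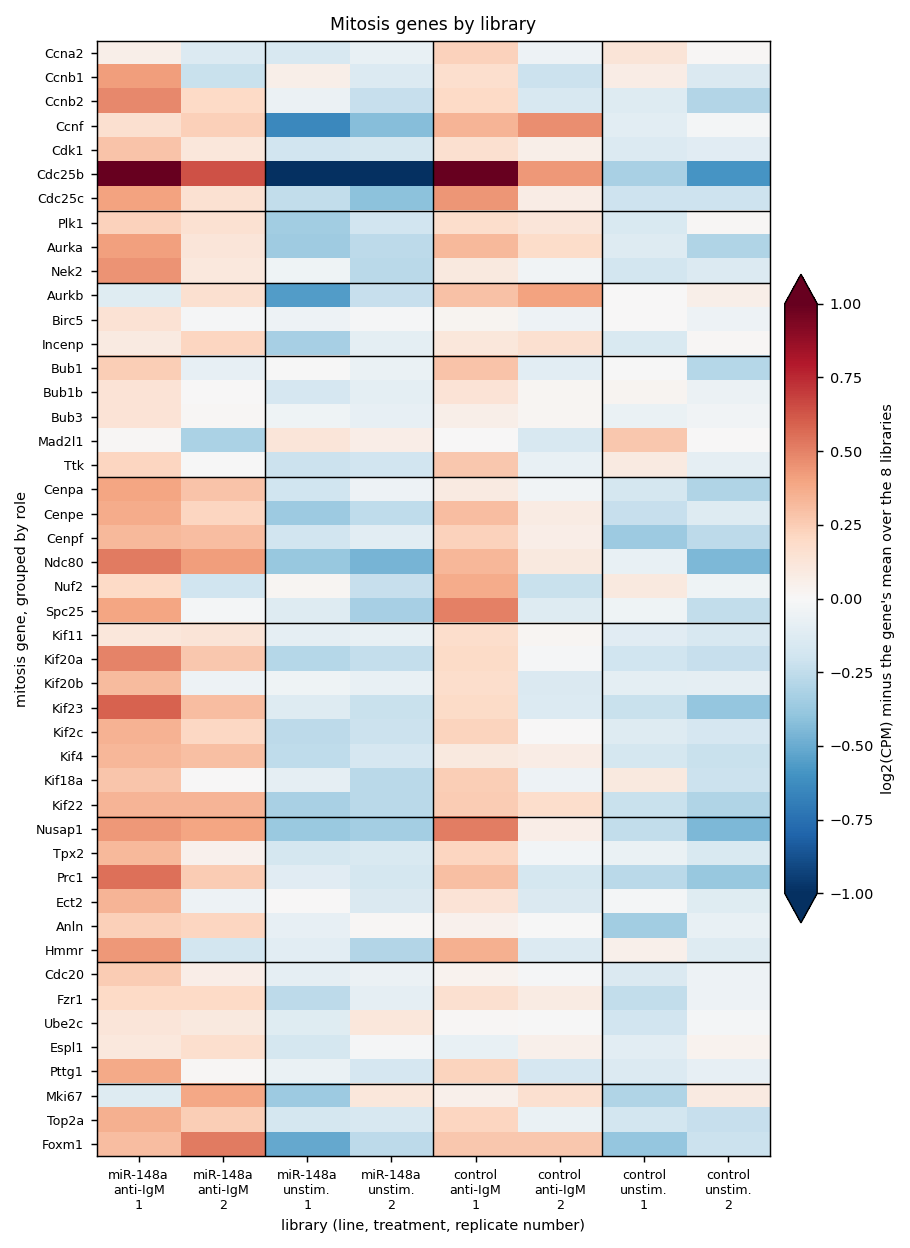
Each row is a mitosis gene, grouped by role with black lines between roles, and each column a library, ordered by line and treatment. Colour gives log2(CPM) minus the gene's mean over the 8 libraries, with red for higher and blue for lower. The anti-IgM columns are mostly red, except that of control replicate 2, which is mixed, and the unstimulated columns are mostly blue. Cdc25b runs past the colour scale, and Mad2l1 is darkest red in an unstimulated control library.

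Summarised per library as the median over members of the log2 deviation from each gene's own mean, the mitosis genes stood at 0.32 and 0.15 in the anti-IgM and -0.17 and -0.17 in the unstimulated miR-148a libraries. In the control line the medians were 0.21 and -0.0053 with anti-IgM and -0.13 and -0.13 without it. Replicate 2 of the anti-IgM control group was thus the least raised of the anti-IgM libraries, with 22 of 46 members above their own mean, against 45 in its replicate 1. For 50 DNA replication genes the same medians stayed between -0.094 and 0.071 in all 8 libraries. They were lowest in the anti-IgM miR-148a libraries, at -0.056 and -0.094.

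**Figure D2:**
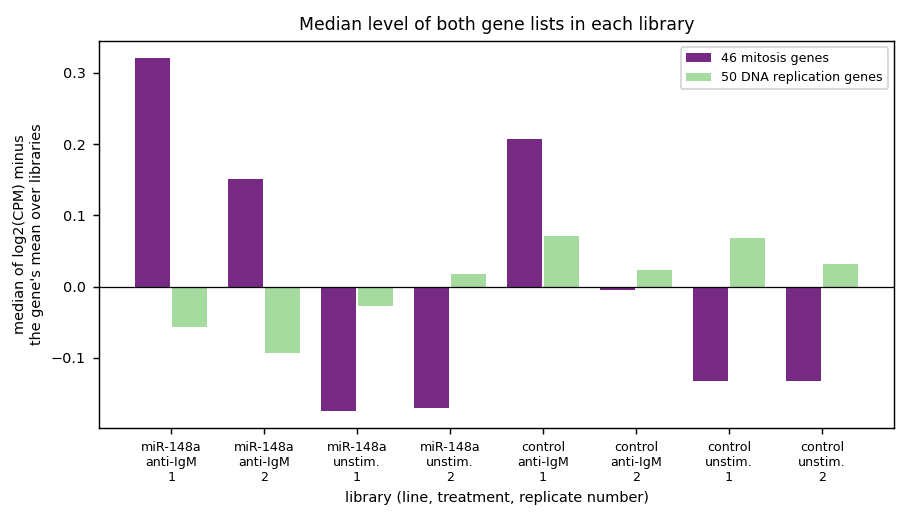
Bars give, for each library, the median log2 deviation from each gene's mean over the 8 libraries, for 46 mitosis genes (purple) and 50 DNA replication genes (green). The mitosis bars reach 0.32 in anti-IgM miR-148a replicate 1 and are below 0 in all 4 unstimulated libraries, while the replication bars stay between -0.094 and 0.071.

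Among the cyclins, Cdk1 and its activators, 5 of 7 members rose in the miR-148a line and 2 in the control line. Cdc25b, a phosphatase that activates Cdk1 at the centrosome before mitosis (chromosome 2, 131186949 to 131198497, plus strand), had 87.3 and 65.0 CPM in anti-IgM and 20.3 and 17.6 CPM in unstimulated miR-148a cells. In control cells Cdc25b had 88.2 and 56.6 CPM with anti-IgM and 33.4 and 27.9 CPM without it. It was the sole member past a log2 fold change of 1, at 2.00 ± 0.23 in the miR-148a line (adjusted p = 0.000727) and 1.22 ± 0.22 in the control line (adjusted p = 0.00805), which is 3.99-fold and 2.33-fold. The anti-IgM levels of the lines lay close together, and the unstimulated level was lower in both miR-148a libraries than in either control library. Ccnf, the cyclin F subunit of an SCF ubiquitin ligase, had 114 and 120.4 CPM in anti-IgM and 65.2 and 76.0 CPM in unstimulated miR-148a cells. In control cells Ccnf had 129 and 141 CPM with anti-IgM and 95.0 and 100.6 CPM without it. Ccnf had a log2 fold change of 0.73 ± 0.11 in the miR-148a line (adjusted p = 0.00200) and 0.47 ± 0.11 in the control line (adjusted p = 0.0225), with no overlap of anti-IgM and unstimulated libraries in either line.

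Cdc25c, the other CDC25 phosphatase of the list, stood at 38.3 and 32.3 CPM with anti-IgM against 24.5 and 21.9 CPM without it in miR-148a cells. In control cells Cdc25c had 39.3 and 30.5 CPM with anti-IgM against 25.2 and 25.2 CPM without it. Cdc25c had a log2 fold change of 0.60 ± 0.15 in the miR-148a line (adjusted p = 0.0158) and 0.46 ± 0.15 in the control line (adjusted p = 0.0627, and 0.00526 with the block). Ccnb2, a B-type cyclin, had 116 and 95.6 CPM with anti-IgM against 79.9 and 70.9 CPM without it in miR-148a cells. In control cells Ccnb2 had 95.9 and 74.5 CPM with anti-IgM against 76.2 and 68.1 CPM without it. Ccnb2 had a log2 fold change of 0.48 ± 0.15 in the miR-148a line (adjusted p = 0.0398) and 0.23 ± 0.15 in the control line (adjusted p = 0.331, and 0.0471 with the block). Its control libraries overlapped, replicate 2 with anti-IgM being below replicate 1 without it. Cdk1, the kinase that these cyclins activate, had 198 and 175 CPM in anti-IgM and 142 and 144 CPM in unstimulated miR-148a cells. In control cells Cdk1 had 181 and 169 CPM with anti-IgM and 147 and 150.1 CPM without it, with no overlap within either line. Cdk1 had a log2 fold change of 0.39 ± 0.10 in the miR-148a line (adjusted p = 0.0193) and 0.23 ± 0.10 in the control line (adjusted p = 0.141, and 0.0293 with the block). Ccnb1, the main cyclin B of mitotic entry, had 275 and 177 CPM with anti-IgM against 214 and 188 CPM without it in miR-148a cells. In control cells Ccnb1 had 232 and 178 CPM with anti-IgM against 217 and 187 CPM without it. Replicate 1 was the higher library of every group for Ccnb1, the groups overlapped in both lines, and the log2 fold change was 0.16 ± 0.21 in the miR-148a line (adjusted p = 0.595) and 0.018 ± 0.21 in the control line (adjusted p = 0.966). Ccna2, the cyclin A of S phase and G2, ranged from 228 to 299 CPM over the 8 libraries, with log2 fold changes of 0.082 and 0.026 in the miR-148a and control lines that did not pass the test. Directions of Ccnb1 and Ccna2 turned round when 1 library was left out. Calls were lost with unstimulated miR-148a replicate 2 left out for Ccnb2 and Cdc25c (adjusted p = 0.196 and 0.101) and with unstimulated miR-148a replicate 1 left out for Cdk1 (adjusted p = 0.127), and in the control line with unstimulated control replicate 1 left out for Ccnf (adjusted p = 0.125) and with unstimulated control replicate 2 left out for Cdc25b (adjusted p = 0.0572).

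All 3 mitotic kinases rose in the miR-148a line and 1 in the control line. Aurka, the centrosome kinase Aurora A, had 112 and 91.7 CPM in anti-IgM and 65.7 and 70.3 CPM in unstimulated miR-148a cells. In control cells Aurka had 105 and 95.7 CPM with anti-IgM and 77.1 and 68.2 CPM without it. Aurka had a log2 fold change of 0.58 ± 0.13 in the miR-148a line (adjusted p = 0.00924) and 0.47 ± 0.13 in the control line (adjusted p = 0.0357). Plk1, the Polo-like kinase that acts from mitotic entry to cytokinesis, had 153 and 144 CPM with anti-IgM against 102 and 114 CPM without it in miR-148a cells. In control cells Plk1 had 147 and 141 CPM with anti-IgM against 117 and 131 CPM without it. Plk1 had a log2 fold change of 0.46 ± 0.11 in the miR-148a line (adjusted p = 0.0121) and 0.21 ± 0.11 in the control line (adjusted p = 0.1999), and its libraries did not overlap within either line. Nek2, a kinase that separates centrosomes, had 167 and 131 CPM with anti-IgM against 119 and 101.5 CPM without it in miR-148a cells. In control cells Nek2 had 131 and 119 CPM with anti-IgM against 108 and 111 CPM without it. Nek2 had a log2 fold change of 0.43 ± 0.14 in the miR-148a line (adjusted p = 0.0413) and 0.19 ± 0.14 in the control line (adjusted p = 0.380). Calls in the miR-148a line were lost with unstimulated miR-148a replicate 1 left out for Plk1 and Aurka (log2 fold changes of 0.38 and 0.52). The Nek2 call was lost with any 1 of 7 libraries left out, at 0.32 without unstimulated miR-148a replicate 2. The control line call of Aurka was lost with any 1 of 6 libraries left out, at 0.37 without unstimulated control replicate 2.

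The chromosomal passenger complex corrects wrong attachments and guides cytokinesis, and 1 of its 3 listed members rose in the miR-148a line and none in the control line. Incenp, its scaffold, had 321 and 351 CPM in anti-IgM and 239 and 281 CPM in unstimulated miR-148a cells. In control cells Incenp had 325 and 337 CPM with anti-IgM and 271 and 304 CPM without it. Incenp had a log2 fold change of 0.37 ± 0.11 in the miR-148a line (adjusted p = 0.0360) and 0.21 ± 0.11 in the control line (adjusted p = 0.239, and 0.0363 with the block). Aurkb, its kinase Aurora B (chromosome 11, 69045647 to 69051664, plus strand), had 84.5 and 103 CPM in anti-IgM and 62.4 and 78.4 CPM in unstimulated miR-148a cells. In control cells Aurkb had 113 and 121 CPM with anti-IgM and 91.9 and 95.6 CPM without it. Within each line both anti-IgM libraries of Aurkb lay above both unstimulated ones, with a log2 fold change of 0.42 ± 0.14 in the miR-148a line (adjusted p = 0.0518, and 0.00159 with the block) and 0.32 ± 0.14 in the control line (adjusted p = 0.146, and 0.0127 with the block). Birc5, the survivin subunit, ranged from 128 to 147 CPM, with log2 fold changes of 0.098 and 0.0087 in the miR-148a and control lines that did not pass. The Incenp call was lost with unstimulated miR-148a replicate 1 left out (adjusted p = 0.270).

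None of the 5 spindle checkpoint genes was called in either line without the block. Mad2l1 had 138 and 109.8 CPM with anti-IgM against 148 and 142.6 CPM without it in miR-148a cells. In control cells Mad2l1 had 136.9 and 122 CPM with anti-IgM against 165 and 137.1 CPM without it. Both anti-IgM libraries lay below both unstimulated libraries in each line, narrowly so in the control line, and the log2 fold change was -0.24 ± 0.14 in the miR-148a line (adjusted p = 0.237, and 0.0249 with the block) and -0.22 ± 0.14 in the control line (adjusted p = 0.307). Bub1, Bub1b, Bub3 and Ttk, the kinases and the adaptor of the checkpoint, had log2 fold changes of 0.12, 0.20, 0.13 and 0.31 in the miR-148a line, at adjusted p of 0.131 or more. In the control line their log2 fold changes were 0.24, 0.094, 0.089 and 0.098, at adjusted p of 0.357 or more. With the block, Bub1b (adjusted p = 0.0370) and Ttk (0.0148) rose in the miR-148a line and Bub1 (0.0442) in the control line.

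Of the 6 centromere and kinetochore genes, 4 rose in the miR-148a line and 2 in the control line. Ndc80, the microtubule-binding subunit of the outer kinetochore, had 107 and 98.9 CPM in anti-IgM and 57.0 and 53.7 CPM in unstimulated miR-148a cells. In control cells Ndc80 had 93.4 and 79.6 CPM with anti-IgM and 70.3 and 54.3 CPM without it. Ndc80 had a log2 fold change of 0.89 ± 0.14 in the miR-148a line (adjusted p = 0.00228) and 0.46 ± 0.14 in the control line (adjusted p = 0.0521, and 0.00115 with the block), and the miR-148a value was the highest after that of Cdc25b. Cenpe, a kinetochore kinesin, had 457 and 411 CPM with anti-IgM against 274 and 296 CPM without it in miR-148a cells. In control cells Cenpe had 437 and 374 CPM with anti-IgM against 302 and 323 CPM without it. Cenpe had a log2 fold change of 0.60 ± 0.11 in the miR-148a line (adjusted p = 0.00408) and 0.38 ± 0.11 in the control line (adjusted p = 0.0452). Cenpf, a large kinetochore protein of G2 and mitosis, had 299.7 and 296 CPM in anti-IgM and 210.0 and 222 CPM in unstimulated miR-148a cells. In control cells Cenpf had 282 and 251 CPM with anti-IgM and 186 and 199 CPM without it. Cenpf had a log2 fold change of 0.46 ± 0.098 in the miR-148a line (adjusted p = 0.00792) and 0.47 ± 0.098 in the control line (adjusted p = 0.0143). Cenpa, the histone H3 variant that marks centromeres, had 137.002 and 127 CPM with anti-IgM against 90.7 and 100.6 CPM without it in miR-148a cells. In control cells Cenpa had 111 and 102 CPM with anti-IgM against 92.1 and 84.4 CPM without it. Cenpa had a log2 fold change of 0.46 ± 0.11 in the miR-148a line (adjusted p = 0.0124) and 0.27 ± 0.11 in the control line (adjusted p = 0.128, and 0.0303 with the block), and its anti-IgM libraries were above the unstimulated ones in both lines. Nuf2 and Spc25, which sit in the same complex as Ndc80, had log2 fold changes of 0.11 and 0.42 in the miR-148a line and 0.062 and 0.34 in the control line, and neither passed the test without the block. With the block Spc25 rose in both lines (adjusted p = 0.00765 in the miR-148a line and 0.0310 in the control line). Calls were lost with unstimulated miR-148a replicate 1 left out for Cenpa and Cenpf (adjusted p = 0.122 and 0.0813), and in the control line with anti-IgM control replicate 1 left out for Cenpe and Cenpf (adjusted p = 0.239 and 0.0970).

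Of the 8 mitotic kinesins, 5 rose in the miR-148a line and 1 in the control line. Kif22, the chromokinesin Kid that pushes chromosome arms to the spindle equator, had 223 and 223 CPM in anti-IgM and 141 and 146 CPM in unstimulated miR-148a cells. In control cells Kif22 had 209.6 and 199 CPM with anti-IgM and 150.1 and 142 CPM without it. Kif22 had a log2 fold change of 0.64 ± 0.091 in the miR-148a line (adjusted p = 0.00151) and 0.48 ± 0.091 in the control line (adjusted p = 0.00958), with the replicates of each group close together. Kif20a, a kinesin of the spindle midzone and cytokinesis, had 271 and 232 CPM with anti-IgM against 158 and 163 CPM without it in miR-148a cells. In control cells Kif20a had 219.8 and 191 CPM with anti-IgM against 168 and 164 CPM without it. Kif20a had a log2 fold change of 0.65 ± 0.11 in the miR-148a line (adjusted p = 0.00338) and 0.31 ± 0.11 in the control line (adjusted p = 0.0958, and 0.0103 with the block). Kif23, the kinesin subunit of centralspindlin, had 224 and 183 CPM with anti-IgM against 136 and 127 CPM without it in miR-148a cells. In control cells Kif23 had 169.8 and 135 CPM with anti-IgM against 127 and 113 CPM without it. Kif23 had a log2 fold change of 0.63 ± 0.14 in the miR-148a line (adjusted p = 0.0108) and 0.34 ± 0.14 in the control line (adjusted p = 0.138, and 0.00477 with the block). Kif4, a chromokinesin that works with Prc1 at the midzone, had 172 and 168 CPM in anti-IgM and 114 and 122 CPM in unstimulated miR-148a cells. In control cells Kif4 had 146 and 144 CPM with anti-IgM and 121 and 117 CPM without it. Its replicates lay close together in every group, and the log2 fold change was 0.53 ± 0.092 in the miR-148a line (adjusted p = 0.00350) and 0.29 ± 0.092 in the control line (adjusted p = 0.0654, and 0.00870 with the block). Kif2c, a kinesin that takes microtubules apart at centromeres, had 121 and 109.6 CPM with anti-IgM against 79.4 and 81.8 CPM without it in miR-148a cells. In control cells Kif2c had 111 and 95.4 CPM with anti-IgM against 86.8 and 84.6 CPM without it. Kif2c had a log2 fold change of 0.52 ± 0.11 in the miR-148a line (adjusted p = 0.00808) and 0.26 ± 0.11 in the control line (adjusted p = 0.135, and 0.0283 with the block). Kif11, the motor that pushes spindle poles apart, Kif18a and Kif20b did not pass in either line without the block, with log2 fold changes of 0.20 to 0.32 in the miR-148a line and 0.11 to 0.24 in the control line. With the block Kif11 rose in both lines (adjusted p = 0.0293 in the miR-148a line and 0.0184 in the control line), and Kif18a in the miR-148a line (adjusted p = 0.00669). Calls in the miR-148a line were lost for Kif23 with unstimulated miR-148a replicate 2 left out (log2 fold change of 0.58). The Kif2c call was lost with unstimulated miR-148a replicate 1 left out (0.49). The control line call of Kif22 was lost with unstimulated control replicate 2 left out (0.44).

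Of the 6 spindle and cytokinesis factors, 2 rose in the miR-148a line and 1 in the control line. Nusap1, a protein that bundles spindle microtubules, had 242 and 236 CPM in anti-IgM and 139 and 141 CPM in unstimulated miR-148a cells. In control cells Nusap1 had 255 and 188 CPM with anti-IgM and 152 and 132 CPM without it. Nusap1 had a log2 fold change of 0.77 ± 0.14 in the miR-148a line (adjusted p = 0.00464) and 0.64 ± 0.14 in the control line (adjusted p = 0.0187), and its promoter, shown above, held none of the motifs searched for. Prc1, the bundler of midzone microtubules, had 207 and 169 CPM with anti-IgM against 131 and 126 CPM without it in miR-148a cells. In control cells Prc1 had 174 and 126 CPM with anti-IgM against 118 and 109 CPM without it. Prc1 had a log2 fold change of 0.55 ± 0.16 in the miR-148a line (adjusted p = 0.0311) and 0.40 ± 0.16 in the control line (adjusted p = 0.123, and 0.00558 with the block). Tpx2, which activates Aurora A on the spindle, Ect2, the exchange factor that starts the cleavage furrow, Anln, the ring scaffold anillin, and Hmmr, a spindle protein, had log2 fold changes of 0.35, 0.22, 0.26 and 0.35 in the miR-148a line. In the control line these were 0.20, 0.064, 0.23 and 0.16, and none of the 4 passed without the block in either line. With the block Tpx2, Anln and Hmmr rose in the miR-148a line (adjusted p = 0.00328, 0.0276 and 0.0164). The Prc1 call in the miR-148a line was lost with anti-IgM miR-148a replicate 1 left out (log2 fold change of 0.40). The control line call of Nusap1 was lost with unstimulated control replicate 2 left out (log2 fold change of 0.54).

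Of the 5 regulators and targets of the anaphase-promoting complex, 1 rose in the miR-148a line and none in the control line. Fzr1, the Cdh1 activator that works after anaphase and in G1, had 103 and 103 CPM in anti-IgM and 74.7 and 84.2 CPM in unstimulated miR-148a cells. In control cells Fzr1 had 99.9 and 94.9 CPM with anti-IgM and 75.7 and 86.4 CPM without it. Fzr1 had a log2 fold change of 0.38 ± 0.11 in the miR-148a line (adjusted p = 0.0321) and 0.27 ± 0.11 in the control line (adjusted p = 0.132, and 0.0305 with the block). Cdc20, the activator held back by the checkpoint, had 195 and 171 CPM with anti-IgM against 154 and 157 CPM without it in miR-148a cells. In control cells Cdc20 had 168 and 162 CPM with anti-IgM against 148 and 158 CPM without it. All anti-IgM libraries of Cdc20 lay above the unstimulated ones of the same line, by a log2 fold change of 0.24 ± 0.10 in the miR-148a line (adjusted p = 0.113, and 0.0286 with the block) and 0.11 ± 0.10 in the control line (adjusted p = 0.504). Ube2c, the ubiquitin-conjugating partner of the complex, Espl1, the protease separase, and Pttg1, its inhibitor securin, had log2 fold changes of 0.11, 0.23 and 0.31 in the miR-148a line and 0.11, 0.020 and 0.13 in the control line, with no call without the block. With the block Espl1 rose in the miR-148a line (adjusted p = 0.0147). The Fzr1 call was lost with unstimulated miR-148a replicate 1 left out (adjusted p = 0.233).

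The transcription factor Foxm1, which activates many late cell cycle genes, and Top2a rose in the miR-148a line, and Foxm1 also in the control line. Foxm1 had 100.8 and 117 CPM in anti-IgM and 57.2 and 68.1 CPM in unstimulated miR-148a cells. In control cells Foxm1 had 98.4 and 98.4 CPM with anti-IgM and 62.5 and 70.3 CPM without it. Foxm1 had a log2 fold change of 0.80 ± 0.13 in the miR-148a line (adjusted p = 0.00221) and 0.57 ± 0.13 in the control line (adjusted p = 0.0174), with no overlap in either line. Top2a, the topoisomerase that untangles sister chromosomes, had 2777 and 2571 CPM in anti-IgM and 1919 and 1944 CPM in unstimulated miR-148a cells. In control cells Top2a had 2516 and 2069.7 CPM with anti-IgM and 1905 and 1848 CPM without it. Top2a had a log2 fold change of 0.47 ± 0.10 in the miR-148a line (adjusted p = 0.0101) and 0.29 ± 0.10 in the control line (adjusted p = 0.0915, and 0.00798 with the block). Mki67, the proliferation marker Ki-67 that coats mitotic chromosomes, had 2267 and 3245 CPM with anti-IgM against 1926 and 2678 CPM without it in miR-148a cells. In control cells Mki67 had 2563 and 2776 CPM with anti-IgM against 2009 and 2635 CPM without it. Replicate 2 was the higher library of each group for Mki67, the groups overlapped, and its log2 fold change was 0.26 ± 0.20 in the miR-148a line (adjusted p = 0.379, and 0.0211 with the block) and 0.20 ± 0.20 in the control line (adjusted p = 0.547). Per kb of annotated exon and averaged over the 8 libraries, Mki67 at 249.7 and Top2a at 243 CPM per kb were the highest of the members, followed by Cdc20 at 87.9 and Bub1b at 75.3, and Kif18a at 5.78 and Cdc25c at 6.03 were the lowest. The Top2a call in the miR-148a line was lost with unstimulated miR-148a replicate 1 left out (log2 fold change of 0.46). The control line call of Foxm1 was lost with unstimulated control replicate 1 left out (log2 fold change of 0.48).

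**Figure D3:**
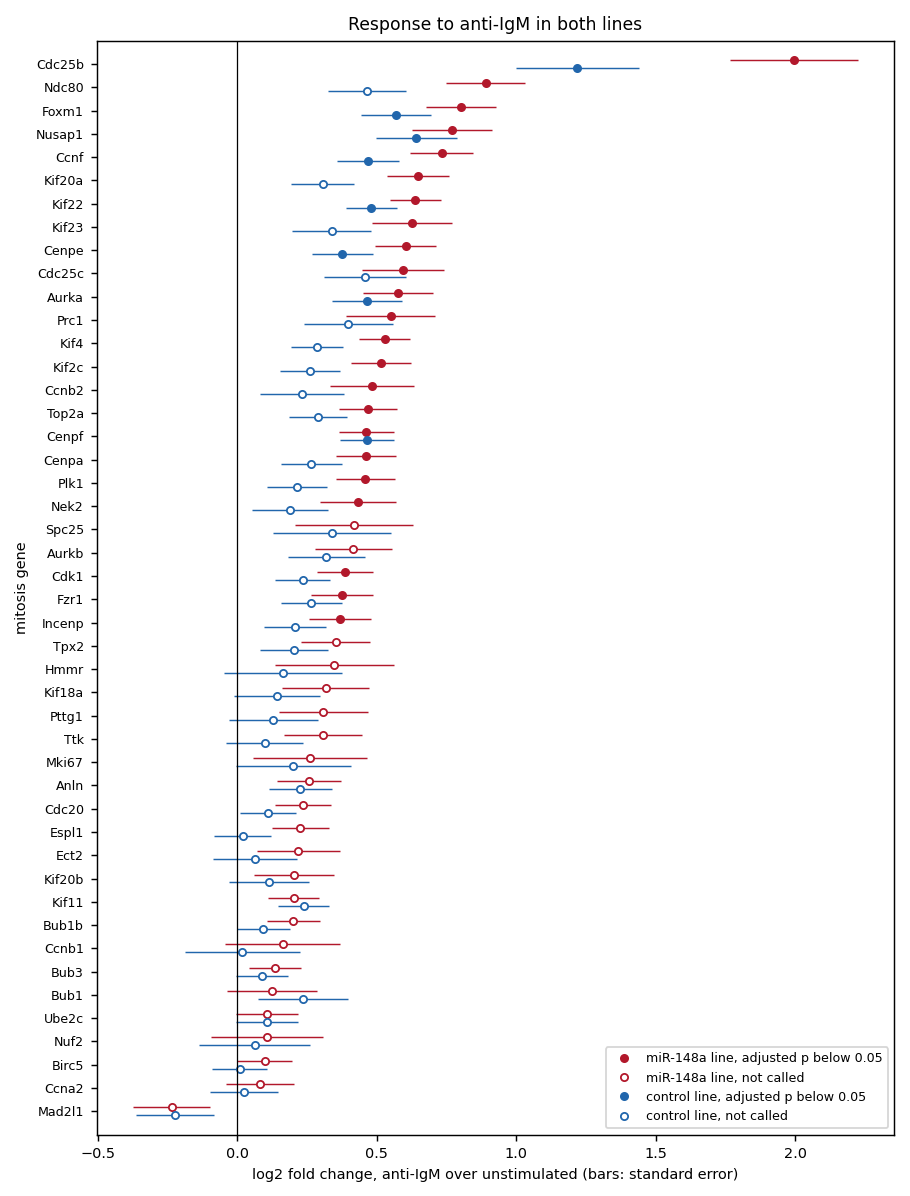
Points give the log2 fold change of each mitosis gene, anti-IgM over unstimulated, in the miR-148a line (red) and the control line (blue), with bars of 1 standard error, and filled points have an adjusted p below 0.05. Genes are ordered by the miR-148a value, from Cdc25b at 2.00 down to Mad2l1 at -0.24, and 23 red and 8 blue points are filled.

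**Figure D4:**
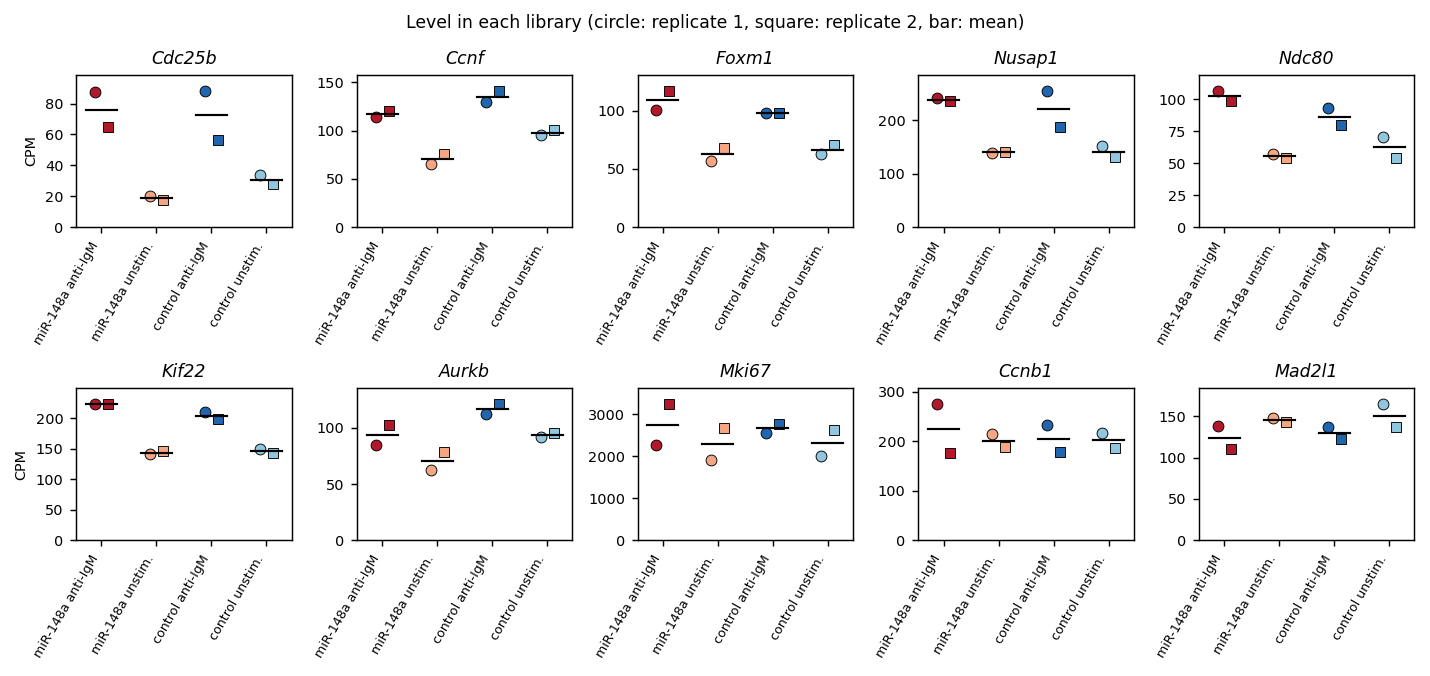
CPM of 10 mitosis genes in each of the 8 libraries, by group, with circles for replicate 1, squares for replicate 2 and a bar at the mean of the pair. Cdc25b, Ccnf, Foxm1, Nusap1, Ndc80 and Kif22 have both anti-IgM libraries above both unstimulated libraries in each line, Ccnb1 and Mki67 overlap, and Mad2l1 lies lower with anti-IgM.

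Members with and without the late cell cycle elements in their promoter were set side by side as a description. In the miR-148a line the median log2 fold change was 0.42 for the 27 members with TTTGAA or TTCAAA and 0.31 for the 12 without it, and in the control line 0.23 and 0.17. Calls were made for 14 of the 27 and 5 of the 12 in the miR-148a line and for 4 and 3 in the control line. The 6 promoters with neither TTTGAA nor CCAAT on either strand, those of Birc5, Kif18a, Mad2l1, Nuf2, Nusap1 and Pttg1, include the 1 member that was lower and also Nusap1, among the most raised. Foxm1, Aurkb, Ccna2, Incenp, Tpx2, Kif20a and Cdc25c are not among the 39 promoters counted.

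The mitosis genes were set beside related lists, whose members were also chosen with results of these data known. Of 34 tested genes among further spindle, kinesin and cytokinesis genes, 13 rose and 1 fell in the miR-148a line, and 3 rose in the control line, with median log2 fold changes of 0.28 and 0.13. The largest called were Depdc1b, at 0.84 ± 0.15 (adjusted p = 0.00385) in the miR-148a line and 0.63 ± 0.15 (adjusted p = 0.0220) in the control line, and the spindle protein gene Ckap2l, at 0.81 ± 0.092 (adjusted p = 0.000707) in the miR-148a line and 0.54 ± 0.091 (adjusted p = 0.00632) in the control line. Of 40 further kinetochore and centromere genes, 5 rose and 1 fell in the miR-148a line and 1 rose and 1 fell in the control line. The largest rise was that of Mad2l1bp, a partner of Mad2, at 0.77 ± 0.14 (adjusted p = 0.00408) in the miR-148a line. The one that fell in both was Trip13, the ATPase that dismantles the Mad2 checkpoint complex, at -0.55 ± 0.12 (adjusted p = 0.0105) in the miR-148a line and -0.56 ± 0.12 (adjusted p = 0.0169) in the control line. Across all genes tested, 14.7% were called higher and 14% lower in the miR-148a line, and 9.6% and 7.45% in the control line. With the block these shares were 22.8% and 23.3% in the miR-148a line and 17.6% and 17.2% in the control line. Without the block, the kinetochore and centromere list did not exceed the share called higher in either line. Condensin and cohesin genes gave 3 higher and 1 lower of 19 in the miR-148a line, led by the condensin subunit Ncapd2 at 0.50 ± 0.10 (adjusted p = 0.00706), and none in the control line. Of 16 core subunits of the anaphase-promoting complex 1 rose in the miR-148a line, Anapc2, at 0.35 ± 0.095 (adjusted p = 0.0248), and none in the control line. With the block, the calls higher and lower in the miR-148a line were 18 and 3 for the spindle, kinesin and cytokinesis list, 10 and 4 for the kinetochore and centromere list, 5 and 3 for the condensin and cohesin list and 1 and 3 for the anaphase-promoting complex list, and in the control line 14 and 1 for the spindle, kinesin and cytokinesis list, 5 and 3 for the kinetochore and centromere list, 4 and 1 for the condensin and cohesin list and 1 and 3 for the anaphase-promoting complex list. Calls in the miR-148a line were lost with anti-IgM miR-148a replicate 2 left out for Trip13 (adjusted p = 0.0795), with unstimulated miR-148a replicate 1 left out for Ncapd2 (adjusted p = 0.0798) and with unstimulated miR-148a replicate 2 left out for Anapc2 (adjusted p = 0.148), and calls in the control line were lost with anti-IgM control replicate 2 left out for Trip13 (adjusted p = 0.0917) and with unstimulated control replicate 2 left out for Ckap2l and Depdc1b (adjusted p = 0.0528 and 0.133).

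Lists of genes that act earlier in the cycle or restrain it were set beside the members in the same way. Of 50 DNA replication genes 1 rose and 4 fell in the miR-148a line, where 14% of all genes fell, and 3 fell in the control line, where 7.45% did, with median log2 fold changes of -0.074 and 0.0079. Orc2 and Orc1, subunits of the origin recognition complex, changed by -1.05 ± 0.13 (adjusted p = 0.00104) in the miR-148a line and -0.73 ± 0.13 (adjusted p = 0.00779) in the control line for Orc2 and by -0.60 ± 0.11 (adjusted p = 0.00385) in the miR-148a line and -0.50 ± 0.11 (adjusted p = 0.0148) in the control line for Orc1. Of 15 tested mitotic entry regulators 2 fell in the miR-148a line, and 1 rose and 1 fell in the control line. Cdc25a, the CDC25 phosphatase that also acts at the start of S phase, fell, at -0.75 ± 0.11 (adjusted p = 0.00169) in the miR-148a line and -0.57 ± 0.11 (adjusted p = 0.0103) in the control line. Wee1, the kinase that inhibits Cdk1, fell in the miR-148a line, at -0.34 ± 0.092 (adjusted p = 0.0236). The largest change of that list was in Lats2, a kinase of the Hippo pathway, which rose in the control line with a log2 fold change of 2.37 ± 0.47 (adjusted p = 0.0113). Its highest level over the 8 libraries was 5.02 CPM, and its log2 fold change in the miR-148a line was 0.58 ± 0.49 (adjusted p = 0.412). Of 5 tested CDK inhibitors 3 rose in both lines, with Cdkn2d (p19Ink4d) at 2.14 ± 0.18 (adjusted p = 0.000346) in the miR-148a line and 1.62 ± 0.17 (adjusted p = 0.00112) in the control line. Cdkn1a (p21) changed by 1.26 ± 0.27 in the miR-148a line and 1.33 ± 0.27 in the control line, and Cdkn1b (p27) by 0.76 ± 0.15 and 0.59 ± 0.15, each called. Of 21 transcription factors of mitotic genes 3 rose and 4 fell in the miR-148a line and 3 rose and 1 fell in the control line. Over all genes tested, 14.7% rose in the miR-148a line and 9.6% in the control line. E2f2, a factor of S phase genes, rose most, at 1.22 ± 0.14 (adjusted p = 0.000707) in the miR-148a line and 0.95 ± 0.14 (adjusted p = 0.00345) in the control line, and Tfdp1, a partner of E2F factors, fell in the miR-148a line, at -0.57 ± 0.11 (adjusted p = 0.00466). With the block, the calls higher and lower in the miR-148a line were 5 and 10 for the DNA replication list, 1 and 4 for the mitotic entry list, 3 and 0 for the CDK inhibitor list and 6 and 8 for the transcription factor list, and in the control line 2 and 8 for the DNA replication list, 2 and 1 for the mitotic entry list, 3 and 0 for the CDK inhibitor list and 3 and 4 for the transcription factor list. Calls in the miR-148a line were lost with unstimulated miR-148a replicate 1 left out for Wee1 (adjusted p = 0.135), and calls in the control line were lost with unstimulated control replicate 2 left out for Cdc25a, Lats2, Cdkn1a and Cdkn1b (adjusted p = 0.0757, 0.0751, 0.0832 and 0.176) and with anti-IgM control replicate 1 left out for Orc1 and Orc2 (adjusted p = 0.0707 and 0.0564).

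No member differed between the miR-148a and control lines without the block, unstimulated or with anti-IgM, where 0.487% and 2.52% of all genes tested were called either way. At an unadjusted p below 0.05 there were 3 members unstimulated (Ccnf, Cdc25b and Aurkb) and 5 with anti-IgM (Aurkb, Cenpa, Kif20a, Kif23 and Kif4). Of all 11291 genes tested, 1286 unstimulated and 2059 with anti-IgM were below that p, a larger share than among the members. DESeq2 called Ccnf unstimulated (log2 fold change -0.48, adjusted p = 0.0353). With the block, 3 members were lower in unstimulated miR-148a cells, where 3.37% of all genes were called lower: Ccnf, Cdc25b and Aurkb. The values of Ccnf were 65.2 and 76.0 CPM in unstimulated miR-148a cells and 95.0 and 100.6 CPM in unstimulated control cells, for a log2 difference of -0.47 ± 0.11 (adjusted p = 0.119, and 0.00220 with the block). Cdc25b had 20.3 and 17.6 CPM in unstimulated miR-148a cells and 33.4 and 27.9 CPM in unstimulated control cells, for a log2 difference of -0.70 ± 0.23 (adjusted p = 0.263, and 0.00285 with the block). Aurkb had 62.4 and 78.4 CPM in unstimulated miR-148a cells and 91.9 and 95.6 CPM in unstimulated control cells, for a log2 difference of -0.41 ± 0.14 (adjusted p = 0.273, and 0.00832 with the block). For all 3 genes both miR-148a libraries lay below both control libraries, which held for 13 of the 46 members, these 3 included. The share of all genes with that separation was not computed, so the separation is a description only and adds no support to these 3 differences.

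With anti-IgM and the block, 5 members were higher in miR-148a cells, Ccnb2, Cenpa, Kif20a, Kif23 and Prc1, where 7.9% of all genes were, and Aurkb was lower, where 8.24% of all genes were. Aurkb had 84.5 and 103 CPM in anti-IgM miR-148a cells and 113 and 121 CPM in anti-IgM control cells, for a log2 difference of -0.32 ± 0.14 (adjusted p = 0.272, and 0.0276 with the block). Kif23 differed by 0.42 ± 0.14 (adjusted p = 0.168, and 0.00315 with the block), the largest rise, and Prc1 by 0.33 ± 0.16 (adjusted p = 0.324, and 0.0264 with the block). Ccnb2 differed by 0.32 ± 0.15 (adjusted p = 0.315, and 0.0212 with the block). For Cenpa the difference was 0.31 ± 0.11 (adjusted p = 0.177, and 0.0271 with the block). For Kif20a it was 0.29 ± 0.11 (adjusted p = 0.214, and 0.0272 with the block). Ccnf kept a lower value with anti-IgM that was not called, at -0.21 ± 0.11 (adjusted p = 0.376). The median log2 difference between the lines over all members was -0.040 unstimulated and 0.094 with anti-IgM.

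Aurkb and Ccnf, called lower in unstimulated miR-148a cells with the block, as was Cdc25b, are also 2 of the 3 members with the TGCACTGA match shown above. The third, Mad2l1, differed by -0.055 ± 0.14 (adjusted p = 0.940) unstimulated and -0.067 ± 0.14 (adjusted p = 0.856) with anti-IgM. Members with TGCACTG alone differed by -0.19 for Ccna2, -0.20 for Plk1, -0.060 for Cdk1 and -0.017 for Nusap1 unstimulated, and by -0.13, 0.046, 0.092 and 0.11 with anti-IgM. The median over the 7 members with TGCACTG was -0.19 unstimulated and -0.067 with anti-IgM, against -0.014 and 0.12 for the 39 members without it. Cdc25b, with the most negative unstimulated difference, held no TGCACTG in its longest 3′ UTR. Whether the microRNA acts on any of these transcripts was not tested.

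**Figure D5:**
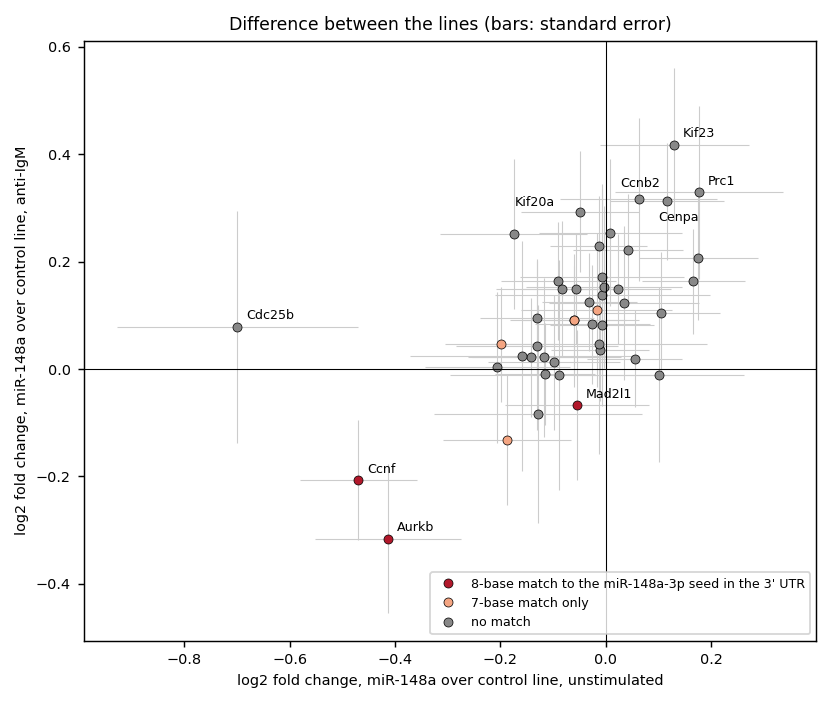
Each point is a mitosis gene, with the log2 fold change of the miR-148a over the control line unstimulated on the x axis and with anti-IgM on the y axis, and bars of 1 standard error. Dark red marks TGCACTGA and orange TGCACTG alone in the 3′ UTR. Ccnf and Aurkb lie at the lower left, Cdc25b at -0.70 on the x axis, and Kif23 highest at 0.42.

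Whether the response to anti-IgM differed between the lines was tested with the interaction. It was called for 0 members without or with the block, against 0% and 0.0974% of all genes, with an adjusted p of at least 0.99958 without the block. At an unadjusted p below 0.05 there was 1 member, Cdc25b, with a difference in log2 response of 0.78 ± 0.31 (unadjusted p = 0.0352, and adjusted p = 0.0629 with the block). Of all 11291 genes, 484 were below that p. That difference of Cdc25b was 0.70 between the replicate 1 libraries and 0.86 between the replicate 2 libraries. The response was larger in the miR-148a line for 41 of 46 members, with a median difference of 0.15, against 46.25% of all genes. That count was 31 with anti-IgM miR-148a replicate 1 left out and 31 with anti-IgM control replicate 2 left out. It was 45 with anti-IgM control replicate 1 left out. The larger count of calls in that line is therefore not shown to be a difference between lines. The 2 lines share no library, and the responses of the 46 members had a Pearson r of 0.943 and a Spearman rho of 0.893 between lines, and an r of 0.901 without Cdc25b, as a description across genes that share libraries.

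Exons of 14 members overlap another annotated gene, over 10% of the exon length for 6 of them, and the strand setting used in counting is not stated. The shares were 29.3% for Kif20a with Cdc23, 22.8% for Ube2c with Tnnc2, 15.1% for Kif4 with Pdzd11, 12.7% for Cdc25c with Gm3550, 12.5% for Ccna2 with Exosc9 and 11.1% for Prc1 with Rccd1. Reads in these stretches may be counted for either gene, so the values of these members are less certain.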

How the data were processed

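Polyadenylated RNA of 8 libraries in 4 groups was measured. The authors deposited 1 table of expected counts per gene symbol, made from the sequencing reads and left without normalisation. The submitters' processing notes name Bowtie2, CASAVA 1.8, cutadapt, edgeR, Partek 6.15.0730 and TopHat2 2.0.13 together with the builds GRCm38 and mm10, and give no role for each. The kit keeps strand per the labels' protocols, but how strand entered the counting is not stated. Values that were not whole made up 9.17% to 12.4% of each library, and every value was rounded to a whole number. Of 24081 rows, 27 whose names had become dates (0.213% to 0.235% of a library's counts) were left out.

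Counts of all 8 libraries were tested with edgeR 4.0.16 (R 4.3.3), by the quasi-likelihood F test on 4 group means, with filterByExpr by group and TMM factors. Benjamini-Hochberg adjustment ran over 11291 genes, with calls at 0.05. All groups share 4 residual degrees of freedom. A value after ± is the standard error of a fitted log2 value. Library totals of 5810227 to 18660373 set the precision, and floors of 3 counts cover counting error only. In each group the 2 replicates were further apart than counting alone would place them (mean chi-square per gene from 9.41 to 13.6).

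Deviations from the group means ran together in libraries of the same number (Pearson's r across genes from 0.495 to 0.569 in all 6 pairs of groups), and the second principal component (21.1% of the variance) separated the numbers, so the numbers pair the libraries. What the label prefixes behind them mean is not stated. Alternatives were RLE factors, library totals, no filter, DESeq2 1.42.0, the replicate block, only the groups compared, and leaving out each library.

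The members and the gene lists were chosen with earlier results of these data known. Values in every library are given for members called in any comparison without the block and for 9 standard mitosis genes, 27 in all, and also for Mad2l1, chosen after its values were seen. Of each other list up to 4 called members with the largest change could be named. Promoters and the microRNA came from RefSeq tables, and gene models and 3′ UTRs from GENCODE M21 (GRCm38). No genome sequence was used.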

Additional observations from a re-analysis of the deposited data

How the results depend on the processing

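The replicate block, which pairs the libraries by number, raised the count of called members from 8 to 25 for the control line response and from 23 to 36 for the miR-148a line response, gave 3 for the lines unstimulated and 6 for the lines with anti-IgM, where there were 0 without it, and left the interaction at 0. All 8 and all 23 calls were kept with the block, which changed no call of a member beside these gains. With library totals in place of scaling factors 14 members were called in the control line, where 12.1% of all genes tested were called higher. DESeq2 called 1 member (Ccnf) between the unstimulated lines. Leaving out each library in turn gave 0 to 8 calls in the control line and 9 to 22 in the miR-148a line. Of the 23 calls in the miR-148a line, those of Ccnf, Cdc25b, Cenpe, Ndc80, Kif20a, Kif4, Kif22, Nusap1 and Foxm1 were kept in all 14 alternatives, and no control line call was.

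Members with a log2 fold change near 0 changed direction in some alternatives, and the cause was not tested. In the control line the values were -0.033 for Ccna2, -0.042 for Ccnb1, -0.050 for Birc5 and -0.037 for Espl1 with no filter on low counts, and -0.0030 with RLE factors and -0.0038 with DESeq2 for Birc5. Leaving out each library gave, in the control line, -0.13 to 0.16 for Ccna2, -0.18 to 0.20 for Ccnb1, -0.032 to 0.047 for Birc5, -0.081 to 0.27 for Ttk, -0.25 to 0.33 for Nuf2, -0.054 to 0.27 for Kif20b, -0.0053 to 0.31 for Kif18a, -0.081 to 0.20 for Ect2, -0.10 to 0.39 for Hmmr, -0.052 to 0.084 for Espl1 and -0.062 to 0.33 for Pttg1. In the miR-148a line it gave -0.024 to 0.18 for Ccna2, -0.19 to 0.45 for Ccnb1, -0.049 to 0.28 for Bub1, -0.11 to 0.30 for Nuf2, -0.0067 to 0.22 for Ube2c and -0.025 to 0.51 for Mki67. With 2 libraries a group and 3.21-fold unequal totals, changes under about the standard errors of 0.090 to 0.23 are not resolved. Changes well above their standard error were also left uncalled without the block, such as 0.35 ± 0.12 for Tpx2 in the miR-148a line (adjusted p = 0.0593).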
